A study of Rousettus aegyptiacus with 32 samples.

Results

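Open chromatin of liver was compared with that of pectoralis muscle, the large flight muscle, in the Egyptian fruit bat (Rousettus aegyptiacus). The members are 4 of the 32 libraries of the series, namely the ATAC-seq libraries of liver from bat 1 and bat 3 and of pectoralis muscle from the same bats, chosen by their tissue labels. Both animals were adult males, labelled with no genotype and no treatment, and each tissue had 1 library per animal. The series holds 16 further ATAC-seq libraries of these bats, from 7 brain regions and testis, and 12 RNA-seq libraries that include neither liver nor muscle. Its title concerns vocal learning and the convergent evolution of proteins and regulatory elements in mammals.

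ATAC-seq uses a transposase that inserts preferentially into DNA not wrapped by nucleosomes, so pile-ups of insertions mark promoters, enhancers and insulators. Some of these elements, above all promoters of genes that every cell needs, are open in nearly all tissues. Others, mostly enhancers, are open in 1 or a few cell types, because they are bound by factors of that cell type: HNF and CEBP factors in hepatocytes, MEF2 and myogenic factors in muscle fibres. The samples were bulk tissue, so fewer cells with a region open and less accessibility per cell cannot be told apart. No annotation of the scaffolds was used here, so regions are given by position, no gene can be set beside them, and the tissue labels could not be checked against marker genes.

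The peak lists of liver were weaker than those of muscle, and this touches every result. Each peak is an interval with the peak caller's own fold enrichment over background and its own -log10 p, and the 20000 intervals of a library with the highest -log10 p are called its top intervals here. The median fold of the top intervals was 2.43 in liver of bat 1 and 4.82 in liver of bat 3, against 5.80 in muscle of bat 1 and 9.25 in muscle of bat 3. The -log10 p of the weakest top interval was 5.26 and 7.55 in liver of bats 1 and 3, against 12.9 and 39.3 in muscle of bats 1 and 3. Both liver libraries thus lay below both muscle libraries, and below the 16 brain and testis libraries, whose limits ran over 10.03 to 486 and whose median folds ran over 5.31 to 16.5. An interval with a -log10 p of at least 20 was found 356 and 4395 times among the top intervals of liver of bats 1 and 3, against 12984 and 20000 times in muscle. Liver of bat 1 stood apart from the other 3 libraries as well as from the other tissues. The read depth behind the lists is unknown, and the part of enrichment and depth in the results below was not tested.

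Top intervals were also narrower in liver. Their median width was 233 bp in liver of bat 1 and 376 bp in liver of bat 3, against 699 bp in muscle of bat 1 and 1016 bp in muscle of bat 3. The 20000 intervals covered 5.90 and 9.08 Mb in liver of bats 1 and 3, against 15.1 and 21.2 Mb in muscle. Several summits lay in 14.5% and 30% of the top intervals of liver, against 61.3% and 88.0% of those of muscle. Widths and folds followed the same order of libraries, as the plot of both by library shows.

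**Figure D1:**
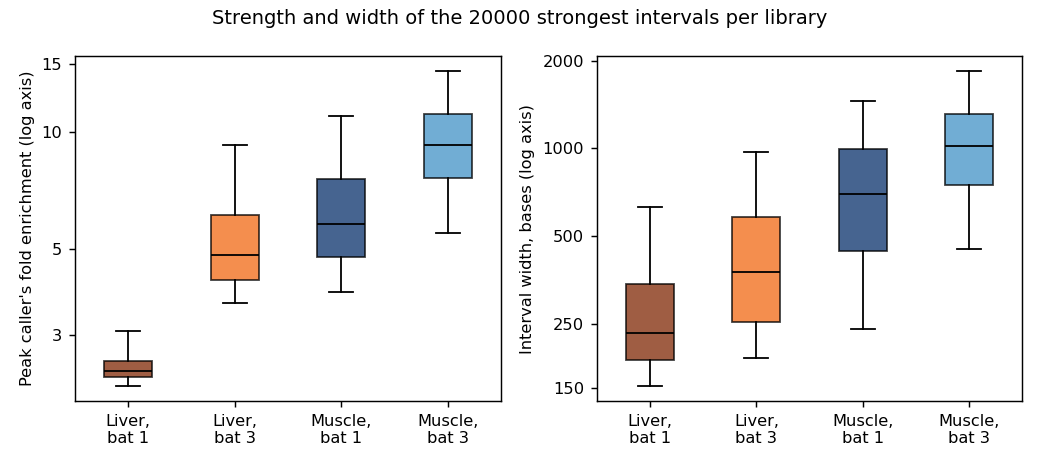
Fold enrichment given by the peak caller (left, log axis) and interval width in bases (right, log axis) of the 20000 strongest intervals of each library. Lines in the boxes are medians, boxes span the quartiles and whiskers the 5th to 95th percentiles over intervals; medians run over 2.43, 4.82, 5.80 and 9.25-fold and over 233, 376, 699 and 1016 bp, from liver of bat 1 to muscle of bat 3.

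The top intervals of muscle recurred between the animals, and those of liver mostly did not. The Jaccard index of a pair of lists, the bases in both divided by the bases in either, was 0.115 for liver of bats 1 and 3 and 0.464 for muscle of bats 1 and 3. Across tissues, liver of bat 3 shared 0.319 with muscle of bat 1 and 0.222 with muscle of bat 3, whereas liver of bat 1 shared 0.0867 with muscle of bat 1 and 0.0604 with muscle of bat 3. Liver of bat 3 therefore shared more with either muscle library than with the liver of the other animal. The mean over the 2 same-tissue pairs was 0.290, against 0.154 for the 2 same-animal pairs and 0.190 for the 2 crossed pairs (different tissue and different animal). The same-tissue mean exceeded the mean of the other 4 pairs by 0.118, with a p of 0.33 in an exact 2-sided permutation test over the 3 ways of pairing the libraries, the smallest p this design allows.

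The 2 liver lists stood differently towards the other 19 ATAC-seq lists. For liver of bat 1, liver of bat 3 was the nearest of the 19, ahead of testis of bat 3 (0.0884) and muscle of bat 1 (0.0867). For liver of bat 3, muscle of bat 1 was the nearest, testis of bat 3 (0.293) the second and liver of bat 1 the last. The 2 muscle lists were each other's nearest. Between bats 1 and 3, the same tissue shared 0.552 in testis and up to 0.714 in cerebellum, so liver was the lowest and muscle the second lowest of the 10 tissues.

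Recurrence in liver was concentrated in the strongest intervals. Of the 2000 strongest intervals of liver of bat 1, 66.7% overlapped a top interval of liver of bat 3, and of its 2000 weakest top intervals 7.85% did. In the other direction, 68.0% of the 2000 strongest intervals of liver of bat 3 and 5.55% of its 2000 weakest lay in liver of bat 1. In muscle, 98.8% of the strongest and 40.6% of the weakest 2000 of bat 1 lay in muscle of bat 3, and 99.4% and 42.5% of those of bat 3 lay in muscle of bat 1. Both liver curves fell below 26% within the third bin of 2000, where both muscle curves were still above 87%.

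The strongest intervals of the 2 livers also differed in how often other tissues had them. Among the 2000 strongest of liver of bat 3, 94.3% overlapped a top interval of at least 1 muscle library and 82.1% one of every brain and testis library. In liver of bat 1 the same shares were 62.1% and 44.3%. Intervals with no top interval in any of the 16 brain and testis libraries made up 31.4% of the 2000 strongest and 84.5% of the 2000 weakest of liver of bat 1, against 3.70% and 53.8% in liver of bat 3. For muscle of bat 1 these shares were 0.05% and 36.9%, and for muscle of bat 3 they were 10.5% and 49.5%. In liver of bat 1, 75.5% of the top intervals lay in none of the other 3 liver and muscle lists, against 38.6% in liver of bat 3, 17.6% in muscle of bat 1 and 26.7% in muscle of bat 3.

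**Figure D2:**
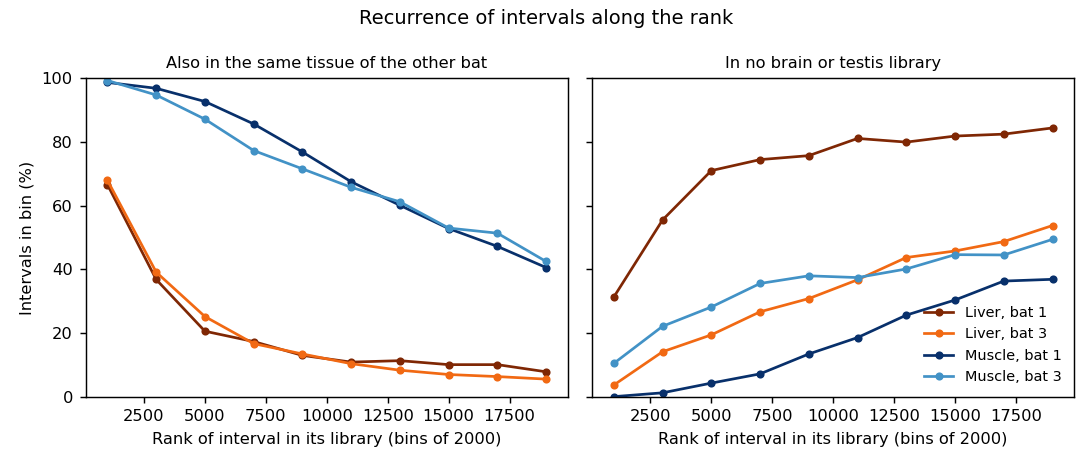
Share of intervals (%) in bins of 2000 along the rank of each library, with the strongest intervals at the left. The left panel counts intervals that overlap a top interval of the same tissue in the other bat, and the right panel those that overlap none of 16 brain and testis libraries; liver falls from above 66% to below 8% in the left panel, while muscle stays above 40%.

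The top intervals of the 4 libraries merged into 48956 separate regions. Of these, 31698 had a top interval in 1 library, 7826 in 2 libraries, 6271 in 3 libraries and 3161 in all 4. Regions of a single library numbered 15104 in liver of bat 1 and 7729 in liver of bat 3, against 3521 in muscle of bat 1 and 5344 in muscle of bat 3. The largest class of 3 libraries, 5606 regions, lacked liver of bat 1, whereas 274 lacked liver of bat 3, 27 lacked muscle of bat 1 and 364 lacked muscle of bat 3.

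Regions open in both animals of 1 tissue and in neither of the other were fewer in liver than in muscle. There were 519 liver-only regions, 1.06% of the merged regions, against 5038 muscle-only regions, 10.3%. The 2 other divisions of the 4 libraries served as controls. Divided by animal, 206 regions (0.421%) were open in both tissues of bat 1 alone and 452 (0.923%) in both tissues of bat 3 alone. In the crossed division, 92 regions (0.188%) were open in liver of bat 1 and muscle of bat 3 alone, and 1519 (3.10%) in liver of bat 3 and muscle of bat 1 alone. The muscle-only count thus exceeded all 4 control counts, whereas the liver-only count was above 3 of them and below the 1519 of the crossed division. With 50000 intervals per library it was 1392, below both the 1640 of bat 3 and the 1479 of that crossed pair. A control region must be missing from 1 library of each tissue, so the control counts describe these libraries and are not a chance level.

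Leaving out regions with a top interval in other tissues changed that order. Among the 27693 merged regions with no top interval in any of the 16 brain and testis libraries, 299 were liver-only (1.08%) and 2176 were muscle-only (7.86%). The control counts there were 29 for bat 1 (0.105%), 174 for bat 3 (0.628%), 59 for liver of bat 1 with muscle of bat 3 (0.213%) and 84 for liver of bat 3 with muscle of bat 1 (0.303%). Most of the 1519 crossed regions, 94.5%, had a top interval in a brain or testis library, with a median of 12 of the 16. Both tissue counts were above all 4 control counts in this restricted set, which was added after the counts over all regions had been seen.

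Absence was also asked for in full, with no deposited interval of any rank in the other pair of libraries. The lists of the 4 libraries went down to a -log10 p of 2 and held 171581 to 190164 intervals. Under this rule 128 liver-only regions (0.261%) and 1856 muscle-only regions (3.79%) were left. The control counts fell to 26 (0.0531%), 16 (0.0327%), 6 (0.0123%) and 19 (0.0388%), in the order bat 1, bat 3, liver of bat 1 with muscle of bat 3, and liver of bat 3 with muscle of bat 1. With both rules applied, 108 liver-only (0.390%) and 1207 muscle-only regions (4.36%) stood against 7 (0.0253%), 10 (0.0361%), 6 (0.0217%) and 3 (0.0108%) control regions.

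The folds of those 108 liver-only regions ran over 1.66 to 3.38 in liver of bat 1 (median 2.46) and 2.73 to 11.6 in liver of bat 3 (median 4.65). The folds of the 1207 muscle-only regions ran over 3.12 to 10.9 in bat 1 (median 5.02) and 4.09 to 22.1 in bat 3 (median 9.67). The medians over all top intervals, given above, were 2.43 and 4.82 in liver and 5.80 and 9.25 in muscle of bats 1 and 3.

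**Figure D3:**
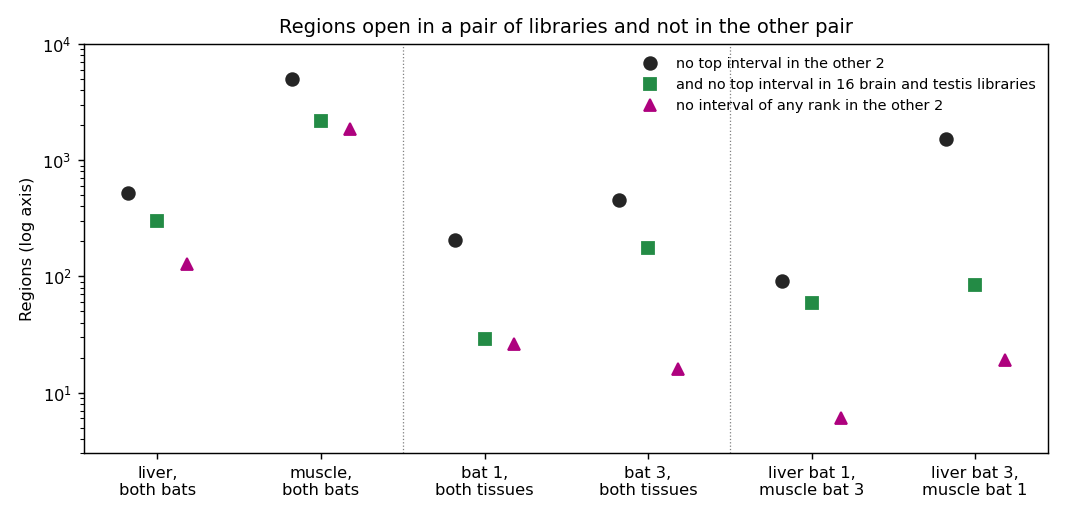
Number of merged regions (log axis) with a top interval in a pair of libraries and not in the other pair, for the division by tissue (left), by animal (middle) and crossed (right). Circles use all 48956 regions, squares the 27693 with no top interval in brain or testis, and triangles ask for no interval of any rank in the other pair; the 519 liver-only regions lie below the 1519 of the last pair, while the 299 and the 128 lie above all 4 control pairs.

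Most liver-only regions had an interval in muscle that ranked below its top 20000. Such an interval could have a -log10 p of up to 12.9 in muscle of bat 1 and 39.3 in muscle of bat 3. The median -log10 p of the liver-only regions was 7.12 and 11.3 in liver of bats 1 and 3. Absence from the muscle top lists therefore need not mean a weaker interval there. An interval of any rank was present in muscle of bat 1 at 64.0% of the 519 regions, in muscle of bat 3 at 63.2%, and in both at 51.8%. Of the 5038 muscle-only regions, 26.4% had an interval of any rank in liver of bat 1 and 53.7% in liver of bat 3, and 17.0% in both. The share with none in either library of the opposite tissue was 24.7% for liver-only and 36.8% for muscle-only regions. The liver lists were the weaker ones, and the part of enrichment in these shares was not tested.

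Testis was the tissue in which liver-only regions were found most often, and its top lists were the weakest of the 16. The -log10 p of the weakest top interval was 15.2 and 10.03 in testis of bats 1 and 3, against 58.9 to 486 in brain. These limits in testis were nearer to those of liver, 5.26 and 7.55 in bats 1 and 3, than any in brain. The part of list strength in the testis shares below was not tested. Of the 519 regions, 220 (42.4%, 95% Wilson interval 38.2 to 46.7) had a top interval in at least 1 of the 16 brain and testis libraries, against 43.4% of all merged regions, and 5 (0.963%) had one in all 16, against 13.3%. The first share is that of the merged regions within its counting interval. The merged regions include those open in all 4 liver and muscle libraries, of which 80.6% had a top interval in all 16. Liver-only regions leave these out by rule, which in part fixes the low second share and the low brain shares. In testis of bat 1 the share was 27.4% (23.7 to 31.4) and in testis of bat 3 it was 21.8% (18.4 to 25.5). In the 14 brain libraries the shares ran over 7.32% to 12.9%, all below both testis libraries. Over all merged regions they were 27.8% and 26.5% in testis of bats 1 and 3 and 23.5% to 29.0% in brain, so liver-only regions were near that level in testis of bat 1, below it in testis of bat 3 and below it in every brain library. There were 50 liver-only regions (9.63%) with a top interval in both testis libraries and in no brain library, against 1.68% of the merged regions, and 49 (9.44%) with one in brain and in no testis library, against 13.0%. The intervals cover counting error only, since neighbouring regions and libraries of 1 animal are not independent.

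Muscle-only regions were found more evenly across the other tissues. Of the 5038 regions, 2862 (56.8%, 95% Wilson interval 55.4 to 58.2) had a top interval in at least 1 of the 16 libraries, against 43.4% of all merged regions. The merged regions include 31698 with a top interval in a single library. In the control classes the share was 85.9% for bat 1 and 61.5% for bat 3. It was 35.9% for liver of bat 1 with muscle of bat 3, and 94.5% for liver of bat 3 with muscle of bat 1. The muscle-only share was above the 35.9% and below the others. By library, it was 24.0% to 34.7% in brain and 29.2% and 27.7% in testis of bats 1 and 3. Over all merged regions these shares were 23.5% to 29.0% in brain and 27.8% and 26.5% in testis of bats 1 and 3. Muscle-only regions were thus near that level in testis, and both testis libraries lay within the range of the brain libraries. There were 102 muscle-only regions (2.02%) with a top interval in both testis libraries and in no brain library, near the 1.68% of all merged regions. Another 1191 (23.6%) had one in brain and in no testis library, against 13.0% of all merged regions. Among the crossed regions of liver of bat 3 and muscle of bat 1 that share was 22.6%. Regions open in all 4 liver and muscle libraries had a top interval elsewhere in 99.4% of cases and in all 16 libraries in 80.6%. At 44 liver-only regions (8.48%) and 255 muscle-only regions (5.06%) no interval of any rank was listed in any of the 16, against 20.6% of all merged regions. Of those 16 lists 15 were limited to 300000 rows, and their lowest -log10 p ran up to 12.3, so they could hold fewer weak intervals than the liver and muscle lists.

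**Figure D4:**
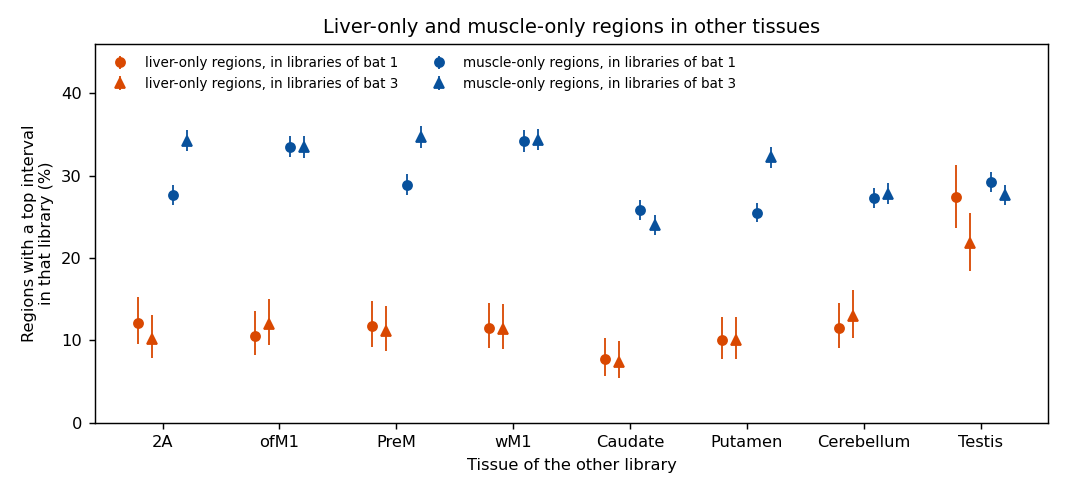
Share (%) of the 519 liver-only regions (orange) and the 5038 muscle-only regions (blue) that have a top interval in each of 16 libraries of other tissues, as circles for bat 1 and triangles for bat 3, with 95% Wilson intervals for counting error; 2A, ofM1, PreM and wM1 are brain regions as the labels name them. Liver-only regions reach 27.4% and 21.8% in testis and stay at or below 12.9% in brain, while muscle-only regions lie between 24.0% and 34.7% in every library.

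Liver-only regions were spread over the ranks of liver of bat 1 differently from those of bat 3. They made up 12.0% of the regions of the 1000 strongest intervals of liver of bat 1 and 2.63% of all its top regions. In liver of bat 3 they made up 1.01% of the 1000 strongest and 2.68% of all. Muscle-only regions made up 0.302% of the regions of the 1000 strongest intervals of muscle of bat 1 and 8.30% of those of bat 3, and about 1 in 4 of all top regions of either (25.6% and 25.2%). The median fold at liver-only regions was 2.50 in bat 1 and 4.58 in bat 3, and at muscle-only regions it was 5.26 in bat 1 and 9.41 in bat 3. The median width there was 293 bp and 356 bp in liver of bats 1 and 3, against 589 bp and 959 bp in muscle.

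Summits of the 2 animals lay close together within these regions. The regions are built from overlapping intervals, so interval width limits these distances. No distance to be had from overlap alone was computed. The strongest summits of liver of bats 1 and 3 were a median of 39 bp apart in the liver-only regions, and 70.7% were within 100 bp. In the muscle-only regions the median distance between muscle of bats 1 and 3 was 20 bp, with 86.7% within 100 bp. At the regions open in all 4 libraries the distance was 50 bp for the 2 livers and 21 bp for the 2 muscles, against 48 bp between liver and muscle of bat 1 and 30 bp between liver and muscle of bat 3. Between liver of bat 1 and muscle of bat 3 it was 55 bp, so the 3 pairs that include liver of bat 1 had the longest distances of those given.

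At the 3161 regions open in all 4 libraries, the ranks set liver and muscle apart less clearly than presence did. The strongest regions were shared by all 4: bases 124334503 to 124335589 of scaffold NW_023416295.1 ranked first in every list, with folds of 28.0 and 29.0 in liver of bats 1 and 3, against 27.4 and 24.2 in muscle. Bases 20666944 to 20667672 of NW_023416293.1 followed, at rank 2 in both livers, against ranks 2 and 3 in muscle. Both had a top interval in all 16 brain and testis libraries. Across the 3161 regions, the Spearman correlation of ranks was 0.453 between the livers, 0.663 between the muscles, 0.700 between liver of bat 3 and muscle of bat 1, and 0.286 between liver of bat 1 and muscle of bat 3. These correlations are across regions of 4 libraries and describe these libraries.

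Both liver libraries ranked a region above both muscle libraries at 471 of the 3161 regions (14.9%), and both muscle libraries ranked it above both livers at 752 (23.8%). Under the division by animal the counts were 430 (13.6%) for bat 1 and 397 (12.6%) for bat 3. In the crossed division they were 241 (7.62%) for liver of bat 1 with muscle of bat 3, and 864 (27.3%) for liver of bat 3 with muscle of bat 1. Both directions together, ranks were separated at 1223 regions by tissue, 827 by animal and 1105 crossed, while the single pair of liver of bat 3 and muscle of bat 1 had more than either tissue did.

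Ranks were converted to normal scores and tested with limma, with Benjamini-Hochberg adjustment over the 3161 regions. No region passed an adjusted p of 0.05 in either direction (0%), and the smallest adjusted p was 0.697. At an unadjusted p under 0.05, 77 regions were higher and 124 lower in liver. The division by animal gave 22 and 12 at that level, and the crossed division 4 and 108.

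With the animal as a replicate block, limma called 3 regions as ranked higher in liver (0.0949%) and none as lower. At an unadjusted p under 0.05 there were 102 and 194 of the 3161 regions, where a share of 0.05 would pass with no difference. The 3 were named after their values were seen. At bases 934731 to 934964 of NW_023416307.1 the rank score was 2.51 in both livers, against 1.05 in muscle of bat 1 and -2.25 in muscle of bat 3 (adjusted p 0.00822 by limma with the block). The region at bases 177602626 to 177604289 of NW_023416295.1 scored 2.61 and 2.18 in liver of bats 1 and 3, against 0.896 and -1.45 in muscle (limma, adjusted p 0.0467). At bases 106462079 to 106462578 of NW_023416312.1 the scores were 2.46 and 1.15 in liver, against 0.331 and -2.10 in muscle, with the same adjusted p of 0.0467 by limma, and no brain or testis library had a top interval there. In all 3 regions both livers were above both muscles. At the first region 2 brain or testis libraries had a top interval, and at the second 4 did. The last listed base is at 177.604 Mb on NW_023416295.1 and at 106.499 Mb on NW_023416312.1, so the regions on these scaffolds lay near their ends. The block left 1 residual degree of freedom against 333 prior ones, so these p-values rest mainly on a spread pooled over the 3161 regions.

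**Figure D5:**
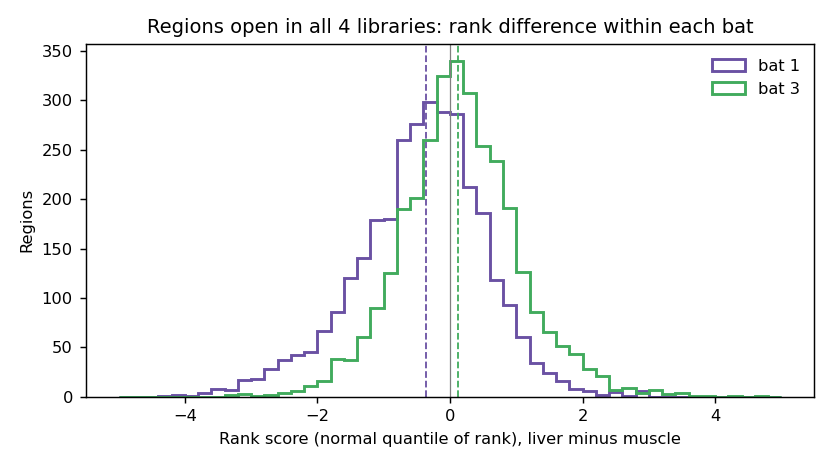
Distribution over the 3161 regions open in all 4 libraries of the difference in rank score (normal quantile of the rank, higher is stronger), liver minus muscle, within bat 1 and within bat 3. Dashed lines are medians, at -0.361 in bat 1 and 0.116 in bat 3, on opposite sides of 0.

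The deposited fold and the width at the same 3161 regions were lower in liver. The caller's fold had a median of 2.62 in liver of bat 1 and 7.05 in liver of bat 3, against 8.75 in muscle of bat 1 and 10.5 in muscle of bat 3. The median difference of log2 fold, liver minus muscle, was -1.67 in bat 1 and -0.53 in bat 3. Both muscles had a higher fold than both livers at 2254 regions (71.3%), and both livers were higher at 20 (0.633%). Under the division by animal, bat 3 was higher at 580 regions (18.3%) and bat 1 at 14 (0.443%), and the crossed pairs were higher at 290 (9.17%) for liver of bat 3 with muscle of bat 1 and 3 (0.0949%) for the other. With each library centred on its own median log2 fold, which places the balance near 0 by construction, both livers were higher at 740 regions (23.4%) and both muscles at 459 (14.5%). After centring, the animal division gave 415 (13.1%) and 368 (11.6%) for bats 1 and 3. The crossed pairs then gave 622 (19.7%) for liver of bat 1 with muscle of bat 3 and 557 (17.6%) for the other. The lists carry no scaling between libraries, so no direction of accessibility can be read from the fold.

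Width gave the clearest division by tissue. The median width was 390 bp and 686 bp in liver of bats 1 and 3, against 1049 bp and 1319 bp in muscle, and the log2 width, liver minus muscle, had a median of -1.32 in bat 1 and -0.87 in bat 3. Both muscles were wider than both livers at 2792 of the 3161 regions (88.3%), and both livers were wider at 8 (0.253%). Under the division by animal, both bat 3 libraries were wider at 263 regions (8.32%) and both bat 1 libraries at 27 (0.854%), and the crossed pairs were wider at 54 (1.71%) and 11 (0.348%). The order of widths followed the order of enrichment of the libraries given above, and the part of enrichment in it was not tested.

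Some liver-only regions lay in tight groups. Another liver-only region lay within 10 kb of 90 of the 519 (17.3%), although the median distance to the nearest one was 574 kb. Of the 5038 muscle-only regions, 542 (10.8%) had another within 10 kb, at a median distance of 61.8 kb. Within 50 kb the order was the other way, with 25.8% of liver-only and 43.6% of muscle-only regions, and neither difference was tested. Among the regions open in all 4 libraries, 5.63% had another within 10 kb. The group with the most liver-only regions within a 100 kb window lay at bases 15120571 to 15159839 of NW_023416308.1, where 7 of 15 merged regions were liver-only, with folds of 1.85 to 4.99 in bat 1 and 2.45 to 3.99 in bat 3. Only 1 of the 7 had no top interval in brain or testis, and all 7 had an interval of some rank in muscle.

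A second group of 6 liver-only regions filled bases 18895 to 46321 of NW_023416303.1, a scaffold whose last listed base is at 0.0480 Mb. Short scaffolds held more of the liver-only regions than of the others: 16 of the 519 (3.08%) lay on 3 of the 9 scaffolds that end below 1 Mb, against 3 of the 5038 muscle-only regions (0.0595%) and 108 of the 48956 merged regions (0.221%) on all 9. Top intervals on these scaffolds numbered 92 and 36 in liver of bats 1 and 3, against 22 and 7 in muscle, and testis of bats 1 and 3 had 24 and 27. The long scaffold NW_023416308.1 held 68 liver-only regions (13.1%), against 331 muscle-only regions (6.57%) and 6.95% of the merged regions. What these scaffolds carry was not analysed here.

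In muscle the densest groups were larger in span. Bases 25280107 to 25365526 of NW_023416284.1 held 6 muscle-only regions among 7 merged ones, with folds of 3.88 to 6.47 in bat 1 and 5.95 to 8.73 in bat 3. Bases 94443255 to 94529553 of NW_023416295.1 held 6 among 10, with folds of 3.89 to 7.29 in bat 1 and 7.29 to 11.4 in bat 3, and 5 of those 6 had no top interval in brain or testis.

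The 10 liver-only regions with the best weaker rank of the 2 animals reached ranks of 149 to 1421 in bat 1 and 293 to 1395 in bat 3. The first, at bases 36201116 to 36201297 of NW_023416308.1, had folds of 2.45 and 3.61 in bats 1 and 3 and a -log10 p of 52.4 and 62.7, with no interval in either muscle. The third, at bases 36216706 to 36216914 of the same scaffold, had folds of 2.18 and 2.74 with a -log10 p of 53.4 and 43.1. In both regions the folds were near or below the medians of the libraries, 2.43 and 4.82, while the -log10 p was above the medians of 6.10 and 12.0. Bases 36218807 to 36219574 of that scaffold were among the 5 strongest regions open in all 4 libraries, with folds of 28.3 and 28.4 in liver, against 27.1 and 25.6 in muscle.

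Other strong liver-only regions had higher folds in bat 3. Bases 63789611 to 63790205 of NW_023416286.1 had folds of 3.05 in bat 1 and 13.6 in bat 3, and bases 110714817 to 110715362 of NW_023416284.1 had 2.93 and 11.2. In the first of these no interval of any rank was listed in muscle, and 2 of the 16 brain and testis libraries had a top interval. Bases 68860440 to 68861549 of NW_023416310.1, with folds of 2.85 and 8.36, had a top interval in 14 of the 16 brain and testis libraries and an interval of lower rank in both muscles.

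Of the liver-only regions with no interval in muscle and no top interval in brain or testis, the strongest lay at bases 79142172 to 79143358 of NW_023416308.1. It ranked 1072 in bat 1 and 1291 in bat 3, with folds of 2.96 and 7.48 and widths of 515 bp and 1187 bp, and its summits in the 2 animals were 18 bp apart. Bases 80617392 to 80617747 of NW_023416286.1 came next, with folds of 2.98 and 10.3, widths of 264 bp and 356 bp and summits 5 bp apart. Bases 49379266 to 49379785 and bases 27865045 to 27865379 of NW_023416308.1 followed, with folds of 1.66 and 4.25 and of 2.85 and 6.97. The fifth, at bases 51361731 to 51362977 of NW_023416285.1, had folds of 2.98 and 4.74 and no interval of any rank in brain or testis. Of these 5 regions, 3 lay on scaffold NW_023416308.1.

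The strongest muscle-only regions had higher folds than any of these in bat 1. The median fold over all top intervals of bat 1 was also higher in muscle, 5.80 against 2.43, and folds carry no scaling between libraries. Bases 6844765 to 6846125 of NW_023416286.1 ranked 1205 in bat 1 and 8 in bat 3, with folds of 5.55 and 11.1, and had no interval in liver and no top interval in brain or testis. Bases 33601585 to 33602812 of NW_023416311.1 had folds of 13.3 and 19.2 with no interval in liver, and 13 of the 16 brain and testis libraries had a top interval there. Bases 18978853 to 18980236 of NW_023416310.1 had folds of 10.4 and 14.2, widths of 1012 bp and 1313 bp and summits 9 bp apart, with no interval in liver and no top interval in brain or testis. Among the 10 strongest muscle-only regions, 4 had a top interval in all 16 brain and testis libraries, whereas none of the 10 strongest liver-only regions did. Over all such regions the shares were 5.76% of muscle-only and 0.963% of liver-only regions, against 13.3% of all merged regions. The merged regions, unlike these classes, include the regions open in both tissues.

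For scale, testis was set against muscle in the same way. In the 36886 merged regions of those 4 libraries, 3829 were testis-only (10.4%) and 4194 muscle-only (11.4%). The control counts were 557 (1.51%) and 126 (0.342%) by animal, and 127 (0.344%) and 300 (0.813%) crossed. Both tissue counts were above all control counts there, over all regions, which did not hold for liver against muscle.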

How the data were processed

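Nuclei came from cryopreserved bulk tissue after Dounce homogenisation, per the labels' protocols. Per the submitters' processing notes, the tools were Bowtie2, MACS2 and Salmon 1.5.2, listed with no roles. The sources used here do not give the genome build. The authors deposited 1 peak list per library. A deposited row holds a fold (a ratio over the caller's background), a -log10 p and q, and the summit offset, and the authors' values carry no scaling between libraries.

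Rows with the same interval were merged, keeping the highest fold and -log10 p, and the 20000 intervals with the highest -log10 p were used (35, 13, 192 and 1 intervals tied at the limit in liver of bats 1 and 3 and muscle of bats 1 and 3). Overlap was at least 1 base. Positions are counted from 1. Regions were compared in Python 3.11.15 (pandas 2.3.3, scipy 1.17.1), ranks with limma 3.58.1 in R 4.3.3 at an adjusted p of 0.05, and both steps were tested on simulated data. The regions given by position are, per tissue, among the 10 with the best weaker rank, with up to 5 more found with the stricter rules, the strongest shared regions and the densest groups. The members and lists were chosen with earlier results of these data known. Libraries with 1 number come from 1 animal, so the numbers pair them; across the 3161 regions the differences of bat 1 from bat 3 in liver and in muscle correlated at 0.00849. The permutation p counts ways of pairing the libraries and measures no spread between animals. The limma p-values without the block combine the spread between 2 animals per tissue (2 residual degrees of freedom) with a spread pooled over regions (4.77 prior degrees). With the replicate block there were 333 prior degrees against 1 residual, so those p-values rest almost wholly on the pooled spread. Wilson intervals cover counting error, and read depth is unknown. The RNA data were not used. Promoters of listed genes and sequence at summits were planned and not analysed here, since no genome or annotation of these scaffolds was used.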

Additional observations from a re-analysis of the deposited data

Results flagged for a closer look

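The rank of the regions open in all 4 libraries moved in opposite directions in the 2 animals. Within bat 1 the rank score, liver minus muscle, had a median of -0.361 over the 3161 regions, with median ranks of 3914 in liver and 2452 in muscle. Within bat 3 it had a median of 0.116, with median ranks of 2718 in liver and 3418 in muscle. Liver ranked higher at 33.4% of the regions in bat 1 and at 56.6% in bat 3. The difference between the animals was not tested, as each has 1 library per tissue.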

How the results depend on the processing

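The liver-only and muscle-only counts scale with the number of intervals kept. With 10000 intervals they were 297 and 1743, and with 50000 they were 1392 and 14798. Among regions with no top interval in brain or testis the same settings gave 153 and 571, and 838 and 5248. Chosen after seeing the data, 1000, 2000 and 5000 intervals gave 66 and 158, 122 and 299, and 210 and 726, or 33 and 41, 50 and 84, and 104 and 176 with none in brain or testis. With no interval of any rank in the other pair they were 128 and 1856. Reciprocal overlap of 50% and ordering by fold kept both within 1.5 times.

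With 1 library or 1 animal left out, liver-only regions ran over 546 to 15839 and muscle-only regions over 5312 to 16028 (306 to 14236 and 2228 to 6581 with none in brain or testis). Without liver of bat 1, where liver of bat 3 alone suffices, they were 8248 and 5312, and without liver of bat 3 they were 15623 and 10644. Without muscle of bat 1 they were 883 and 10382, and without muscle of bat 3 they were 546 and 8559. Fewer libraries have to hold or lack a region in these settings.

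Counting any deposited interval, 91.5% of liver-only and 94.9% of muscle-only regions were present in another tissue, in lists of which 15 of 16 were limited to 300000 rows. The log2 fold difference of -1.10, liver minus muscle, became 0.064 with each library centred on its median, by construction of the centring near 0. The replicate block raised the limma calls to 3 higher regions from 0, and limma made no call in any other setting run. Under other list sizes or ordering by fold, the Jaccard index ran over 0.087 to 0.140 in liver and 0.426 to 0.439 in muscle. The mean index of liver with muscle was 0.172 over 4 pairs in the main setting. With 1 animal left out a single pair remains, with an index of 0.222 without bat 1 and 0.0867 without bat 3. The log2 width difference of -1.10 ran over -1.26 to -1.04. Each pair of libraries has a single index, so an index has no spread of its own. The moves of the indices were set beside 0.121, the standard deviation over the liver-with-muscle pairs, and were smaller. That value is a spread between pairs of libraries and not between animals. Of 56 values for the control divisions under these alternatives, 45 moved by over 1.5 times and 11 did not.

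The counts of promoters of listed genes and of sequence at summits were not run. Depth behind the peak lists is unknown, so weak liver intervals cannot be told from unsequenced ones.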

Other observations

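On scaffold NW_023416312.1, whose last listed base is at 106 Mb, liver of bat 1 had 88 top intervals and liver of bat 3 had 375, against 387 in muscle of bat 1, 358 in muscle of bat 3 and 260 to 564 in the 16 brain and testis libraries. It held 14 of the regions open in all 4 libraries (0.443%), 17 liver-only regions (3.28%), 72 muscle-only regions (1.43%) and 1.35% of the merged regions. Scaffold NW_023416289.1 held 3 liver-only regions (0.578%) and 220 muscle-only regions (4.37%), and scaffold NW_023416292.1 held 4 (0.771%) and 177 (3.51%). On NW_023416293.1 the balance was the other way, with 20 liver-only regions (3.85%) and 45 muscle-only regions (0.893%).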
